A study of Mus musculus with 8 samples.

Results

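Several stretches of autosomal chromatin in mouse pachytene spermatocytes lay under single accessibility peaks many kilobases long, and 10 annotated genes on chromosomes 5, 6, 15 and 17 were examined because they sit at such peaks. The genes were *1700041B01Rik*, *Elfn2*, *Aym1*, *Mir7230*, *Gm10505*, *Gm49793*, *Mir7214*, *Mir7216*, *Gm42811* and *Mir7233*, of 55413 genes that GENCODE vM21 places on 21 chromosomes. They were selected on the measured widths of these same peaks, so width and the values recorded with it are given below as a description and no test was run on them. Every ATAC-seq peak that overlapped a listed gene or lay within 5000 bp of it was taken, which gave 27 of the 19309 WT peaks and 7 of the 30244 cKO peaks. The peaks tied the 10 genes into 4 loci, since neighbouring genes shared a peak.

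Pachytene piRNAs are small RNAs that load onto PIWI proteins in spermatocytes and round spermatids. They are cut from long, mostly noncoding RNAs transcribed by RNA polymerase II, many of them switched on by the transcription factor A-MYB (*Mybl1*) as cells enter pachynema. The loci that encode these precursors often run over long stretches between protein-coding genes. The wide peaks resemble such loci, but no RNA was measured in the files used here, and whether the 10 genes are piRNA precursors was not tested.

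ATAC-seq, in which a transposase inserts sequencing adapters into open DNA, was carried out with the Omni-ATAC protocol on 4 WT and 4 *Arid1a* cKO libraries. *Arid1a* encodes a subunit of the BAF chromatin remodeler. The cKO males were *Arid1a* fl/fl; *Stra8-Cre* Tg/0 and the WT males were *Arid1a* fl/fl or *Arid1a* fl/+, all on a CD1 background, so that floxed alleles occurred in both groups. Adult testes of several males were pooled, pachytene spermatocytes were enriched by Sta-Put sedimentation, and cryopreserved aliquots were transposed. *Stra8-Cre* acts in spermatogonia, and deletion was incomplete, so the cKO aliquots mixed cells without ARID1A and cells that had kept it. The authors report that cells without ARID1A stop at mid-pachynema. Whether the WT and cKO aliquots matched in substage of pachynema was not tested. The aliquots of a genotype are not stated to come from separate pools of males. In bulk libraries, more cells with an open locus and a more open locus per cell cannot be told apart.

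The deposited files held 1 peak list per genotype, so no width or fold enrichment below has a spread between replicates. The fold enrichment is the fragment pileup at a peak's summit over the constant background of its library, each with 1 added. The regular steps between fold values gave a background of 4.33 fragments for WT and 5.11 for cKO, which is 1.18 times as much. The part of this difference in the widths was not tested. Median peak width was 824 bp in WT and 925 bp in cKO. Of the marker genes for pachytene spermatocytes, 16 of 17 had a promoter peak in WT and 17 of 17 in cKO, against 1 and 4 of 8 spermatogonial, 4 and 5 of 7 spermatid, 2 and 3 of 6 Sertoli, 1 and 1 of 5 Leydig, 0 and 1 of 4 immune, and 0 and 0 of 4 peritubular and endothelial markers, WT and cKO respectively.

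The annotation only partly matched the description of these genes as long noncoding. GENCODE lists *Gm49793* as a lincRNA, *Gm10505* as a processed transcript and *1700041B01Rik* as an antisense RNA. *Gm42811* is a transcript still to be experimentally examined (TEC), *Elfn2* and *Aym1* are protein coding, and *Mir7230*, *Mir7233*, *Mir7214* and *Mir7216* are microRNA genes of 56 to 76 bp. RefSeq (GRCm38.p6) adds further noncoding genes at the loci. *1700016C19Rik* lies at chr5:113349892-113357123. The lncRNAs *Gm40402* at chr6:127779196-127814308 and *Gm38902* at chr6:127805232-127818591 lie on chromosome 6, and *Gm52188* at chr15:78687091-78693191 lies on chromosome 15, beyond the end of the wide peak and touched only by narrow cKO peaks. *Gm40402* spans most of the chromosome 6 locus, while *1700041B01Rik* runs to chr15:78682066 in RefSeq and ends at chr15:78676114 in GENCODE.

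The mature sequences of the 4 microRNA genes, from RefSeq, are shown because they are the only short RNA products annotated inside the wide peaks. Capitals mark the seed, bases 2 to 8, and no seed was shared among the 6 sequences.
miR-7230-5p: aGACUGCUguuucucugaguggc
miR-7230-3p: uUGAGUUGagacugucaguaggu
miR-7233-3p: uAUUGUCUgccuuuaggucuac
miR-7214-3p: cUCAGUCCugaccccuugagcgca
miR-7216-5p: uGGAGAGCuggcagaggacccaga
miR-7216-3p: uGGAAUUUggucuuuuccggc

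The sequences at the peak summits show what lies at the highest fragment pileup of each locus, in the library whose peaks fill the list. Whether the other libraries had their summits at the same base was not tested. They are 300 bases of the plus strand of GRCm38.p6 (the sequence of mm10) centred on the summit, with capitals marking every match to the MYB core AACNG or to the longer MYB form GGCAGTTG on either strand. Each match to the longer form contains a match to the core. The E-box CACGTG was searched on both strands as well, and none of these windows held it. The windows are chr5:113335063-113335362 (WT summit), chr5:113340026-113340325 (cKO summit), chr6:127796220-127796519 (the summit in both lists) and chr17:27324983-27325282 (WT summit). The summit on chromosome 15 falls in the 3′ untranslated region of *Elfn2* on the opposite strand from *1700041B01Rik*, and only the 30 bases of chr15:78670561-78670590 are shown.
Chromosome 5, WT: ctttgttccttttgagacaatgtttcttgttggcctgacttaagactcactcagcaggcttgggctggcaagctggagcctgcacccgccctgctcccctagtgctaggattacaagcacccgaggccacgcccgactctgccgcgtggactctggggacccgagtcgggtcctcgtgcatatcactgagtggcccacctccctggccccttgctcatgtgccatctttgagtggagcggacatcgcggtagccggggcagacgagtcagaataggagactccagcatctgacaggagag
Chromosome 5, cKO: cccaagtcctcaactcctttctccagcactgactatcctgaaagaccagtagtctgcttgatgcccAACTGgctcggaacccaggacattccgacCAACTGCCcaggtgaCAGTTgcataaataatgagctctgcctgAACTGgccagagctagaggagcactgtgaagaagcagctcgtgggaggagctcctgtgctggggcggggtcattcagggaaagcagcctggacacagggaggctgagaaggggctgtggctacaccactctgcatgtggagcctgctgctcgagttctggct
Chromosome 6, WT and cKO: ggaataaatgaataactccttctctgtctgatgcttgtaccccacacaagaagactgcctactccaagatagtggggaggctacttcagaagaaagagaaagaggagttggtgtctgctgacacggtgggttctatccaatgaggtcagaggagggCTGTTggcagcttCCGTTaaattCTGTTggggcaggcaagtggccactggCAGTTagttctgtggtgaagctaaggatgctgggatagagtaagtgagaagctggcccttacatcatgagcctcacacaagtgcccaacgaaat
Chromosome 17, WT: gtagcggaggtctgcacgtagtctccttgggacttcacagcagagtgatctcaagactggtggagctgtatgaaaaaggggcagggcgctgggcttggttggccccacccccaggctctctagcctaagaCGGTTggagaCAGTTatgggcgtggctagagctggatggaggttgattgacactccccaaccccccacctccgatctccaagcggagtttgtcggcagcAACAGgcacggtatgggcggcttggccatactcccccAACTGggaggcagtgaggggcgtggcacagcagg
Chromosome 15, WT: cgctctgggcacCAACTGCCaggctctggg

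The MYB core was found 4 times in the chromosome 6 window, 4 times in the chromosome 17 WT window and 6 times in the 300 bases around the chromosome 15 WT summit. In the WT window of chromosome 5 it was not found, and in the cKO window there it was found 4 times. The longer form occurred in the chromosome 15 WT window and in the chromosome 5 cKO window, with 1 match each. Among all WT summit windows, 75.4% held the core, 2.14% the longer form and 8.37% the E-box. Of the windows of the 27 WT peaks, 23 held the core, 1 held the longer form and 2 held the E-box. Among all cKO windows, 77.5% held the core and 2.58% the longer form, and of the 7 cKO windows 6 held the core and 2 the longer form. So short a motif as the core is present in most windows of this length, and its presence here is a description of the letters only. Among 32851 RefSeq promoters of the same length, 80.3% held the core and 1.24% the longer form.

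All 10 genes had a peak within 5000 bp in both lists, against 33.4% of all genes in WT and 40.4% in cKO. A peak of 5000 bp or wider was found at 9 of the 10 genes in WT and at 10 of 10 in cKO, where 0.545% and 1.88% of all genes had one. The exception in WT was *Mir7214*, whose widest peak measured 4889 bp. Of the 27 WT peaks 8 were 5000 bp or wider, and of the 7 cKO peaks 4 were, while 0.834% of all WT peaks and 1.73% of all cKO peaks reached that width. These shares follow from the way the genes were chosen.

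**Figure D1:**
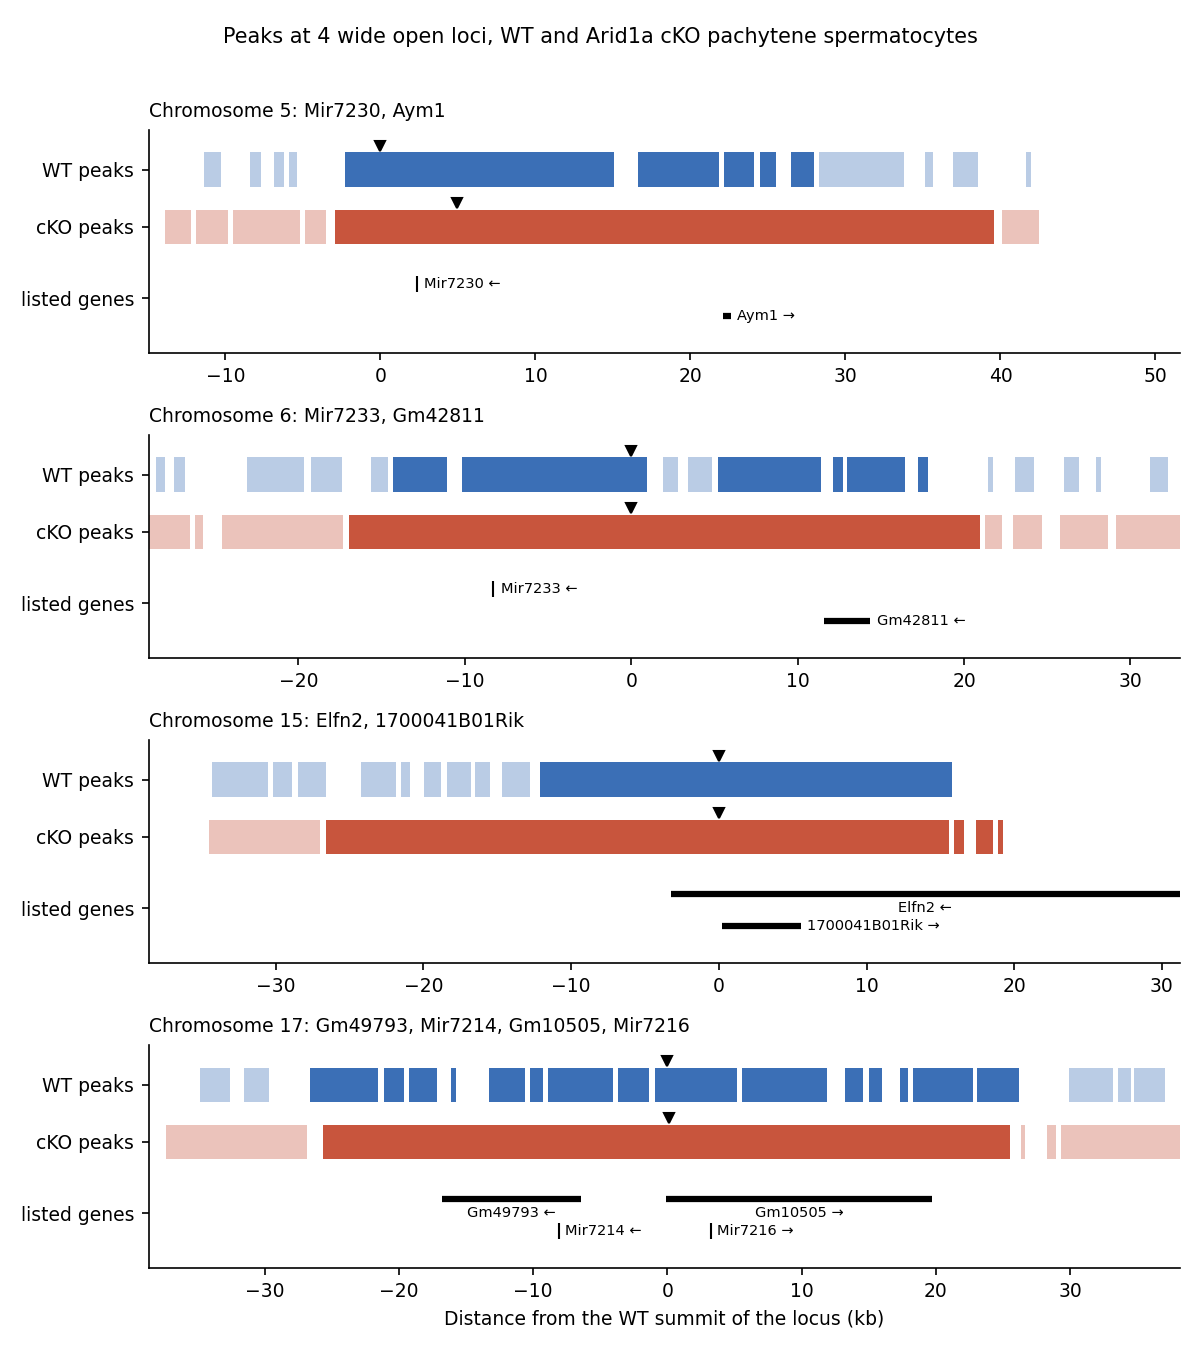
Peaks at the 4 loci by distance from the WT summit (kb), with WT peaks in blue, cKO peaks in red, summits of the strongest peak as triangles and the listed genes below with arrows for the strand. Full colour marks the 27 WT and 7 cKO peaks within 5000 bp of a listed gene and pale colour marks other peaks nearby. At each locus the widest cKO peak spans 7 to 15 WT peaks.

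The locus on chromosome 15 held the widest of all WT peaks, chr15:78658480-78686349, of 27870 bp. It covers *1700041B01Rik* from end to end and the 3′ part of *Elfn2*, a gene for a transmembrane leucine-rich repeat protein. The fold enrichment was 14.26 in WT, from a summit pileup of 75 fragments (95% exact Poisson interval, 59.0 to 94.0). In cKO the peak chr15:78643980-78686185 measured 42206 bp, which is 1.51 times the WT width. Its fold enrichment was 19.96, from 121 fragments (100.4 to 144.6). The 2 summits, chr15:78670576 and chr15:78670563, were 13 bp apart, and the RefSeq start of *1700041B01Rik* lies 62 bp from the WT summit.

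*Elfn2* itself was open at its 3′ end and not at its main starts. All of its coding sequence, chr15:78671877-78674345, lay under the wide peak in both lists. Of its 4 annotated starts, only that of a short transcript at chr15:78675226 was inside a peak. The start at chr15:78718771, farthest from the wide peak, was 32422 bp from the nearest WT peak and 28988 bp from the nearest cKO peak. Within the gene the cKO list had 3 further peaks without a WT counterpart, of 715, 1128 and 326 bp, with fold enrichments of 3.76, 2.95 and 3.27. They made 3 of the 7 cKO peaks gained, where 43.5% of all cKO peaks were gained. On the other side, the wide cKO peak began 14500 bp before the WT peak, beyond the 3′ end of *Elfn2*, and it ended 164 bp before it.

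The locus on chromosome 5 began over *Mir7230*, with the WT peak chr5:113332955-113350272 of 17318 bp, rank 3 by width in the WT list. Its fold enrichment was 11.07, from 58 fragments (44.0 to 75.0). *Aym1*, a small gene named for activating meiotic promoters in yeast, began between the WT peaks chr5:113351822-113357083 of 5262 bp and chr5:113357352-113359339 of 1988 bp. Their fold enrichments were 7.32 and 3.94. The start of *Aym1* was 58 bp outside the nearest WT peak, and 89.0% of the gene lay under WT peaks. Further WT peaks of 1036 and 1515 bp had fold enrichments of 3.56 and 4.50. In cKO a single peak, chr5:113332271-113374781, covered *Mir7230* and *Aym1* with 42511 bp, 2.45 times the widest WT peak. Its fold enrichment was 13.58, from 82 fragments (65.2 to 101.8). Here the summits did not coincide and lay 4963 bp apart, on either side of *Mir7230*. Summit positions assume that the interval spanned by the rows begins where the called peak began.

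On chromosome 6 the widest WT peak, chr6:127786182-127797288, measured 11107 bp and covered *Mir7233*. Its fold enrichment was 9.19, from 48 fragments (35.4 to 63.6). *Gm42811* was covered for 71.2% of its length in WT, and its widest WT peak, chr6:127801611-127807799 of 6189 bp and fold enrichment 5.82, lay next to it. The other 4 WT peaks measured 3249, 590, 3501 and 581 bp, with fold enrichments of at most 5.07. In cKO the peak chr6:127779378-127817334 covered both genes with 37957 bp, 3.42 times the widest WT peak. Its fold enrichment was 14.07, from 85 fragments (67.9 to 105.1), and its summit was the same base as in WT, chr6:127796370.

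The locus on chromosome 17 was in pieces in WT and in 1 piece in cKO. In WT 15 peaks of 427 to 6372 bp lay along *Gm49793*, *Mir7214*, *Gm10505* and *Mir7216*. The strongest, chr17:27324236-27330351, measured 6116 bp and covered the first starts of *Gm10505* and *Mir7216*, with a fold enrichment of 8.63 from 45 fragments (32.8 to 60.2). The next, chr17:27330693-27337064, was the widest with 6372 bp and had a fold enrichment of 6.38. The other 13 had fold enrichments between 3.19 and 6.38, and WT peaks covered 62.7% of *Gm49793* and 81.1% of *Gm10505*. In cKO the peak chr17:27299465-27350687 measured 51223 bp and covered all 4 genes entirely, with 8.04 times the width of the widest WT peak. Its fold enrichment was 16.04, from 97 fragments (78.7 to 118.3). The summits were 90 bp apart, and the WT summit lay 9 bp from a GENCODE start of *Gm10505*. Of the 19 annotated starts of *Gm10505*, 16 were inside a WT peak and 19 inside the cKO peak.

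Over the 10 genes together, 24 of 31 annotated starts were inside a WT peak and 28 inside a cKO peak, where 28.2% and 33.6% of all annotated starts were. The 3 starts outside a peak in both lists were the upstream starts of *Elfn2*. The other 4 starts outside WT peaks, 1 of *Aym1* and 3 of *Gm10505*, lay 1 to 182 bp from one.

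**Figure D2:**
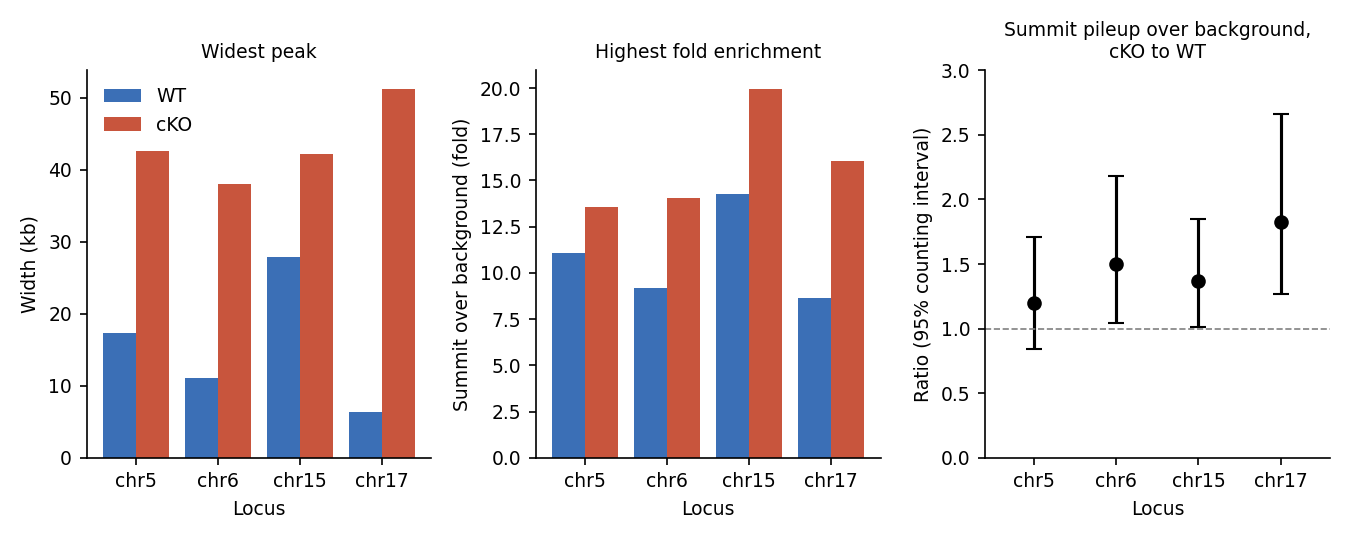
Width of the widest peak (kb, left), highest fold enrichment (middle) and ratio of summit pileups after division by the background (right) at each locus, WT in blue and cKO in red, with the ratio as points and 95% counting intervals. Widths run from 6372 to 27870 bp in WT and from 37957 to 51223 bp in cKO. The interval of the chromosome 5 ratio includes 1, but the intervals do not allow for picking the highest pileup and are not a test.

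In the widest peak as called, the loci differed more in WT than in cKO. The widest peak ranged from 6372 bp on chromosome 17 to 27870 bp on chromosome 15 in WT, and from 37957 bp on chromosome 6 to 51223 bp on chromosome 17 in cKO. The chromosome 17 locus had the narrowest of these peaks in WT and the widest in cKO. All 27 WT peaks were common, that is, overlapped by a cKO peak, where 95.2% of all WT peaks were. All 27 had a wider cKO peak over them, against 93.1% of all common WT peaks, and all 27 had a higher fold enrichment in that cKO peak, against 91.6%. Since 1 cKO peak stood over many WT peaks at each of 3 loci, these 27 are not separate observations, and the shares are close to those of the whole lists. Over all common WT peaks the cKO peak was a median 1.57 times as wide with 1.48 times the fold enrichment. Over the 153 other common WT peaks of 5000 bp or wider the medians were 1.28 and 1.60, and the widest peaks of the 4 loci gave 2.45, 3.42, 1.51 and 8.04 for width on chromosomes 5, 6, 15 and 17.

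At the summits the difference was smaller than in the width of the widest peak. After division by the background of its list, the highest summit pileup in cKO was 1.20 times that in WT on chromosome 5 (95% interval, 0.845 to 1.71), 1.50 times on chromosome 6 (1.04 to 2.18), 1.37 times on chromosome 15 (1.02 to 1.85) and 1.83 times on chromosome 17 (1.27 to 2.66). The bases covered by peaks over each whole locus differed less again on chromosomes 6, 15 and 17, by 1.33, 1.21 and 1.19 times, and by 1.22 times on chromosome 5. The ends of each locus were set by these peaks. On chromosomes 5 and 6 the locus is the cKO peak itself, so its cKO coverage of 100% was fixed in advance. The intervals cover counting error only, within 1 library per genotype, and on chromosome 5 the interval includes 1. They do not allow for each pileup having been picked as the highest of its locus. On chromosome 5 the summits compared lie 4963 bp apart. Whether an interval includes 1 is therefore not a test of a difference at any locus. The highest fold enrichments in the loci were not the highest in their lists, since the chromosome 15 peaks ranked 1451 in WT and 2299 in cKO by that measure.

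Most of each widest cKO peak lay under WT peaks, the widest WT peak counted with the smaller pieces. The widest cKO peaks spanned 8 WT peaks on chromosome 5, 9 on chromosome 6, 7 on chromosome 15 and 15 on chromosome 17, 39 in all. WT peaks covered 81.8%, 75.3%, 86.4% and 80.9% of these 4 cKO peaks. The median over the 517 other common cKO peaks of 5000 bp or wider was 68.6%, with a median of 2 WT peaks under each. All 4 cKO peaks lay over 2 or more WT peaks, as did 5.6% of the cKO peaks that overlapped any, and 14 cKO peaks in the whole list lay over 8 or more. The gaps between the 39 WT peaks numbered 35, and 28 of them were 1000 bp or shorter. The longest, 2430 bp, lay inside *Gm49793*. Neighbouring peaks in the WT list were never closer than 265 bp.

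Joining peaks across gaps of up to 1000 bp, in both lists alike, changed the comparison by locus. On chromosome 15 the joined WT region measured 40025 bp, the widest of 17989 WT regions, and the cKO region 53763 bp. On chromosome 6 the values were 16589 and 49250 bp, on chromosome 17 25221 and 52319 bp, and on chromosome 5 17318 and 56400 bp. With gaps of up to 2000 bp joined, the WT and cKO regions measured 40833 and 56400 bp on chromosome 5, 40912 and 76184 bp on chromosome 6, 40025 and 53763 bp on chromosome 15, and 39466 and 85350 bp on chromosome 17. The 4 WT regions then hardly differed from each other, ranking 5 to 9 of 17164, and the cKO regions differed more. Over the stretch from the first to the last peak of each locus, 143002 of 179078 bp lay under WT peaks and 176066 bp under cKO peaks, a ratio of 1.23. The wide cKO peaks largely set the ends of these stretches, so this ratio mainly restates how much of them WT peaks covered. The 27 WT peaks had a summed width of 123231 bp and the 7 cKO peaks one of 176066 bp, a ratio of 1.43. This sum takes a cKO peak whole but leaves out WT peaks under it that lie farther than 5000 bp from a gene. Of the 39 WT peaks under the widest cKO peaks it counts 27, and on chromosome 15 it counts 1 of 7.

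**Figure D3:**
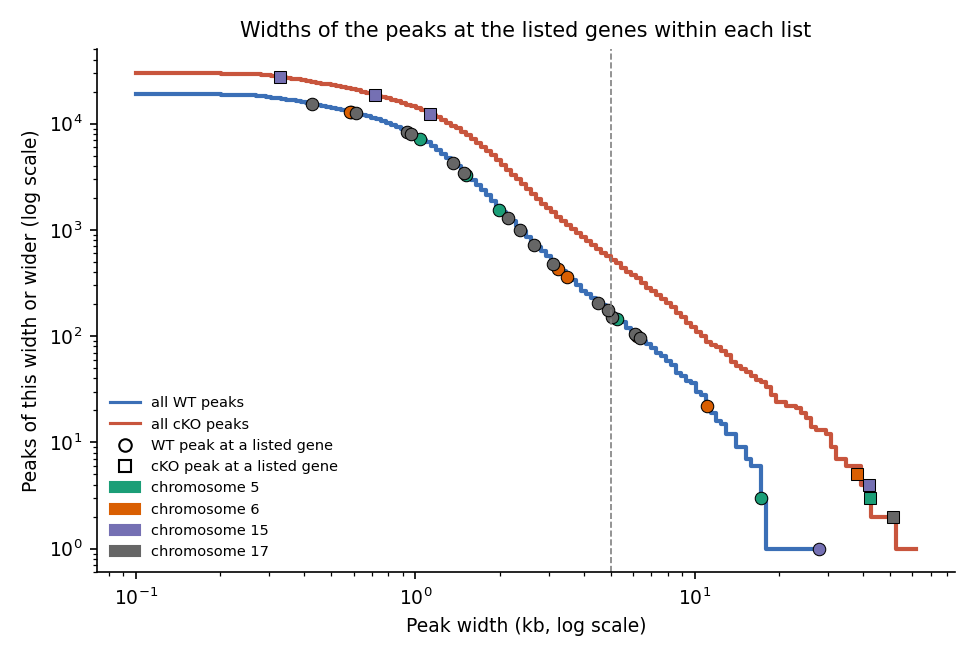
Number of peaks of a given width or wider against width (kb), both on log scales, for the whole WT (blue line) and cKO (red line) lists, with the 27 WT peaks (circles) and 7 cKO peaks (squares) at the listed genes coloured by chromosome. The dashed line is 5 kb, the widest cKO peaks of the loci hold ranks 2 to 5 in their list, and 19 of the WT peaks lie left of the dashed line.

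The 4 wide cKO peaks ranked 2, 3, 4 and 5 by width in the cKO list, in the order chromosome 17, 5, 15 and 6, after a peak of 62524 bp at *Dnah8*. Median fold enrichment was 4.88 over the 27 WT peaks (95% interval, 3.94 to 5.82) and 5.25 over all WT peaks. It was 13.58 over the 7 cKO peaks (2.95 to 19.96) and 4.91 over all cKO peaks. Both intervals are for the median and treat the peaks as separate, although they come from the same 4 loci and are not replicates. The cKO interval is the whole range of its 7 peaks. The cKO median rests on 4 wide peaks at 13.58 to 19.96 beside 3 small ones at 2.95 to 3.76, and with peaks within 10000 bp it was 4.42, below that of all cKO peaks. The other common WT peaks of 5000 bp or wider had a median of 9.38 and the other common cKO peaks of that width 13.42. The medians over the 27 and the 7 peaks take in narrow peaks and are not like these. The 8 wide ones among the 27 WT peaks ran from 3.94 to 14.26, and the 4 wide cKO peaks from 13.58 to 19.96.

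Replicate support differed along the wide peaks. Each row of a list is the part of a peak of 1 reference library that overlapped a peak of another library of the genotype, so full-length rows mark other libraries that called the whole stretch. On chromosome 15 the cKO peak had 3 rows, each of 42206 bp. On chromosome 5 the cKO rows measured 41942, 41999 and 42511 bp. On chromosome 17 there were 2 rows of the full 51223 bp, and 2 further rows of 8988 and 41740 bp. On chromosome 6 the cKO rows measured 4025, 33158, 37714 and 37796 bp. In each of the 4 peaks, rows of near full length or pairs of neighbouring rows ran over the whole stretch.

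In WT the same stretches were called in more pieces. The 27870 bp peak on chromosome 15 had 10 rows, of which 3 measured 26057, 24962 and 18513 bp and the other 7 between 515 and 2316 bp. The 17318 bp peak on chromosome 5 had 6 rows, 2 at full length and 4 of 573 to 10436 bp. On chromosome 6 none of the 8 rows of the 11107 bp peak exceeded 8052 bp. On chromosome 17 the peaks of 6116 and 6372 bp had 3 rows each, of 6109 to 6116 bp and of 6328 to 6372 bp. The other 13 WT peaks there had 2 to 7 rows. Bases covered by 3 or more rows numbered 91501 of the 123231 bp of the 27 WT peaks and 172480 of the 176066 bp of the 7 cKO peaks. Of the WT peaks 25 of 27 stood on 3 or more rows, against 74.5% of all WT peaks, and of the cKO peaks 5 of 7 did, against 80.2%. The exceptions in cKO were the peaks of 1128 and 326 bp within *Elfn2*. A library that called a stretch in pieces gave several rows, so the rows of a peak do not count libraries. The WT peak chr6:127782053-127785301 had 4 rows, yet 0% of its bases lay under 3 or more.

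The limit of 5000 bp cut through these domains. The farthest peak still included was the WT peak chr17:27298504-27303573, 4742 bp from *Gm49793*. The nearest left out were the WT peak chr5:113363478-113368977 of 5500 bp, 5656 bp from *Aym1*, and the cKO peak chr5:113330317-113331732 of 1416 bp, 5857 bp from *Mir7230*. A cKO peak of 13141 bp with a fold enrichment of 9.33, chr17:27354489-27367629, lay 9655 bp from *Gm10505*.

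The sequence under the WT peaks was poor in CpG. The observed over expected CpG ratio had a median of 0.202 over the 27 WT peaks and 0.582 over all WT peaks. Over the 8 of the 27 that were 5000 bp or wider it was 0.255, against 0.281 over the 153 other WT peaks of that width. GC content had a median of 52.1% over the 27 peaks and 57.6% over all WT peaks, with a median below both over the other wide peaks, and it ran from 45.8% on chromosome 6 to 56.4% on chromosome 17 among the 27. The share of 50-mers that occur at a single place in the genome was 86.1% or higher in each of the 27 peaks, and the lowest value belonged to the 5262 bp peak next to *Aym1*. The median was 97.6% over the other wide WT peaks, of which 117 of 153 were unique over at least 50% of their 50-mers. Repeat-masked bases made a median 11.2% of the 27 peaks, 7.82% of the 8 wide ones among them, 15.5% of the other wide ones and 8.0% of all WT peaks. Counted over whole peaks, the MYB core occurred 5.89 times per kb in the 27 peaks and 5.69 times in the 8 wide ones among them. It occurred 5.67 times in the other wide peaks and 5.65 times over all WT peaks.

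**Figure D4:**
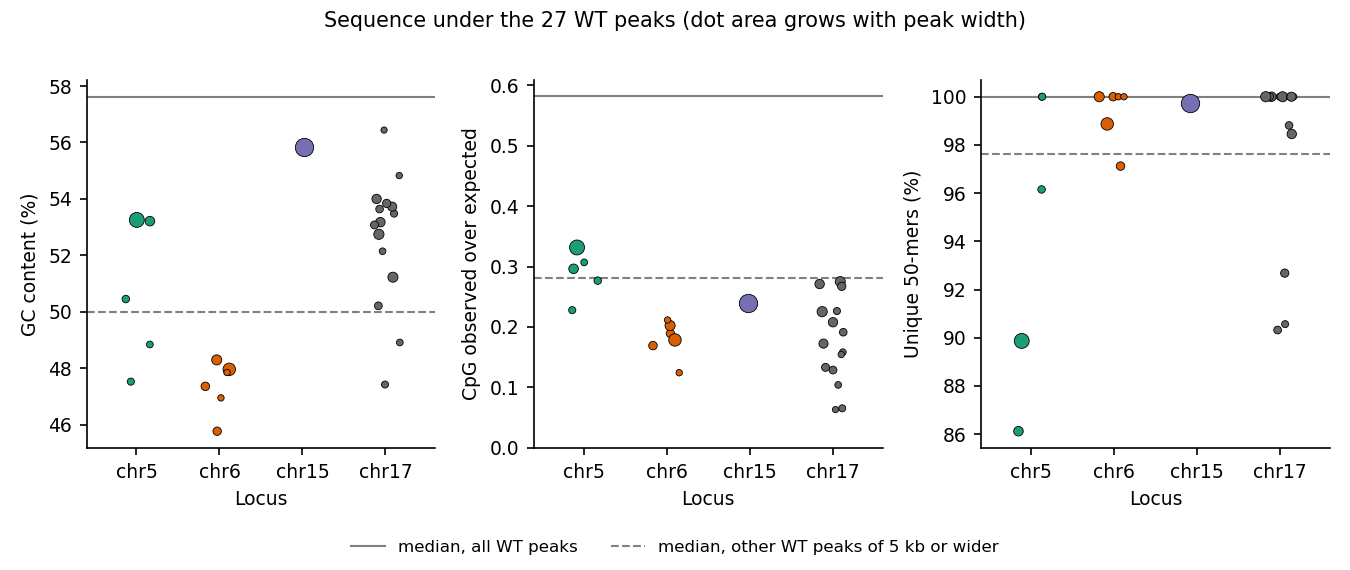
GC content (%), CpG observed over expected and share of unique 50-mers (%) of the 27 WT peaks at the listed genes, by locus, with 1 dot per peak and dot area growing with peak width. Solid lines are medians over all WT peaks and dashed lines medians over the other WT peaks of 5 kb or wider, and all 27 dots lie under the solid CpG line at 0.582.

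The genes whose widest peaks were most like those of the 4 loci, by distance in log2 width over both lists together, were *Mif*, *Gstt2*, *Mroh4*, *Gm6567* and, tied, *AC174471.1* and *Dnah8*. *Mif*, which encodes macrophage migration inhibitory factor, and *Gstt2*, a glutathione S-transferase gene, are neighbours on chromosome 10. They had widest WT peaks of 13974 and 14944 bp and shared a cKO peak of 31747 bp, at distances of 0.416 and 0.430. *Mroh4* on chromosome 15 had peaks of 11271 and 33782 bp (distance 0.443) and the lincRNA *Gm6567* on chromosome 7 had peaks of 11076 and 29531 bp (distance 0.613). At *Dnah8*, an axonemal dynein heavy chain gene on chromosome 17, and the overlapping *AC174471.1* the widest peaks measured 17414 and 62524 bp (distance 0.651), but these WT and cKO peaks lay apart and did not overlap. The medians of the 4 loci that these were set against, taken on the log2 scale, were 13869 bp in WT and 42358 bp in cKO.

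Most genes of the piRNA pathway had a promoter peak, and 3 had a wide peak, in cKO only. Of 31 genes matched by name, 29 had a promoter peak in WT and 30 in cKO, and 30 had a peak within 5000 bp in each list. Of all genes, 24.5% had a promoter peak in WT and 29.3% in cKO, and of protein-coding genes, 49.7% and 56.7%. A promoter peak does not measure expression. Of the 17 pachytene spermatocyte markers, 1 had a peak of 5000 bp or wider in WT and 3 in cKO. Of the 7 spermatid markers, 2 and 3 had one, and no gene of the other marker lists did. In the pathway such a peak was found at 0 of 31 in WT and at 3 of 31 in cKO. The shares of all genes were the 0.545% and 1.88% given above. The 3 were *Pld6*, a mitochondrial nuclease gene with widest peaks of 3333 bp in WT and 7770 bp in cKO, and the Tudor domain genes *Tdrd1* with 4614 and 7244 bp and *Tdrd5* with 2184 and 5081 bp. *Mybl1* had widest peaks of 1698 and 2243 bp, *Tcfl5*, which encodes another transcription factor of pachytene spermatocytes, 1990 and 3114 bp, and *Piwil1*, which encodes the PIWI protein MIWI, 3701 and 4197 bp. *Piwil4*, whose protein MIWI2 acts in fetal germ cells, had no peak in either list, and *Spocd1* had a promoter peak in cKO only.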

How the data were processed

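ATAC-seq was measured in 4 WT and 4 cKO libraries of pachytene spermatocytes. The authors trimmed reads (Trim Galore), aligned them to mm10 (Bowtie2), removed duplicates (Picard) and mitochondrial reads (SAMtools), called peaks per library with MACS2 without a local background, and intersected the replicates into 1 list per genotype. Per-library calls and signal tracks were not used here. As deposited, fold enrichment is a linear ratio and −log10 q gives its adjusted significance (the −log10 p column was not used), the deposited score column is 10 times the −log10 q for nearly all peaks, and another deposited column, of unit other, gives the summit offset. Total counts per library are not given, so depth is known only through the background of each list, and the depth of the other 3 libraries is unknown.

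Rows were merged by peak name into the interval from their first to their last base. The WT list held 52419 rows and the cKO list 84006. A row is a part of a peak of 1 reference library, and which library that is was not given in the sources used here. Summit pileups were recovered from the grid of fold values, and each peak of both lists lay within 0.1% of a whole pileup. Intervals are at 95%, exact Poisson for pileups and exact binomial for their ratio, and these cover counting error only. A pileup was picked as the highest of its peak or locus, which these intervals do not allow for. Intervals for medians are by order statistics. They treat the peaks as separate, but the peaks share loci and are not replicates, so the stated level is nominal. Genes came from GENCODE vM21, whose assembly is that of mm10, and sequences from RefSeq (GRCm38.p6). *Gm49793* and *Gm42811* were not matched there. A promoter ran from 1000 bp upstream to 100 bp downstream of a start. Unique 50-mers were sampled every 25 bp. Summit offsets were added to the start of the collapsed interval, and in 5.10% of WT peaks and 3.40% of cKO peaks the summit then fell past the end. The scripts were tested on simulated data.

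Groups followed the sample titles. No hypothesis test was run. Each genotype has 1 list, and the genes, loci and lists were chosen with earlier results of these data known. Named genes are the listed genes, genes under their peaks, the 5 nearest genes by log2 widths, with ties, and pathway genes with a wide peak. *Mybl1*, *Tcfl5*, *Piwil1*, *Piwil4* and *Spocd1* were named after their values were seen. Work was done in Python 3.11.15 with numpy 2.4.6, pandas 2.3.3, scipy 1.17.1 and matplotlib 3.10.9.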

Additional observations from a re-analysis of the deposited data

How the results depend on the processing

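Of 117 values recomputed under alternatives, 102 stayed within 1.5 times the reported count or value, or within its interval, and 15 moved. For the median fold enrichment of the 7 cKO peaks that interval, 2.95 to 19.96, is their whole range. Hardly any value could count as moved there, so the tally says little about this median. At peaks overlapping a gene's span only, 16 WT peaks were counted, and 16 were common. Within 10000 bp there were 15 cKO peaks, of which 9 were common. The median fold enrichment of the 15 was 4.42 against the reported 13.58, a change not counted as moved. At a −log10 q of at least 10 there were 12 WT peaks (12 common, median fold enrichment 6.38) and 4 cKO peaks. With the cKO list shortened to the length of the WT list 4 cKO peaks were left. With wide set at 10000 bp, 4 genes had a wide WT peak and 10 a wide cKO peak. With gaps of up to 1000 bp joined, an alternative chosen after seeing the data, 9 WT regions (9 common, median fold enrichment 7.32) and 4 cKO regions were counted. In windows of 500 bases, 96.3% of the windows of the 27 WT peaks held the MYB core, against 88.0% of all WT windows. Over the other WT peaks of 5000 bp or wider the share was 90.8%. The stricter threshold, the shorter list and the joining act by leaving out or merging peaks, and otherwise the cause was not tested. The cKO to WT ratio of total widths ran from 1.37 with gaps joined to 1.93 for overlap with the span only. Overlap with the span only left out WT peaks, while all 7 cKO peaks stayed. No paired analysis was possible because each genotype has 1 list without replicate columns, and for the same reason no library could be left out.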
